A study of Homo sapiens with 28 samples.

Results

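Acetylation of histone H3 at lysine 27 (H3K27ac) was mapped by ChIP-seq in SW872 cells, an established human liposarcoma line, and the regions described here carried the mark in every library without being broad in most of them. All peaks of the 14 H3K27ac peak lists that overlapped or touched were merged into 138757 regions. A region was kept as a member if it had a peak in all 14 lists and a peak of at least 5 kb in fewer than 10 of them. This left 3620 members, 2.61% of the merged regions and 89.1% of the 4061 regions with a peak in all 14 lists. The other 441 regions with a peak in all 14 lists had a peak of at least 5 kb in 10 or more lists and are called broad domains. Members were thus chosen by the presence and the width of their peaks in these lists, and both are given as description with no test.

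H3K27ac is deposited by histone acetyltransferases at the nucleosomes that flank active promoters and active enhancers, and it separates active from poised enhancers. Promoters of genes used by every cell usually carry it as a compact block, whereas long acetylated stretches are known from genes that define a cell type. YAP and TAZ are transcriptional coactivators of the Hippo pathway that reach DNA through TEAD factors, mostly at enhancers. CAMTA1 and TFE3 are DNA-binding transcription factors, and the fusions TAZ-CAMTA1 and YAP-TFE3 are the oncogenic drivers of epithelioid hemangioendothelioma.

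The 14 libraries fall under 7 labels of 2 replicates each. All cells were stably transduced, with the retroviral empty vector or with the same vector carrying a construct with a Flag tag: YAP-TFE3 or TAZ-CAMTA1 as fusions, the full-length CAMTA1 and TFE3, or TAZ4SA and YAP5SA. The latter pair are forms of TAZ and YAP with serine-to-alanine changes that escape inhibition by the Hippo kinases. The constructs were expressed on top of the endogenous proteins, the transduced cells were populations of a single line, and the labels give a confluence of 90% reached 48 h before collection, except for CAMTA1, for which they give sub-confluence. The study's ChIP methods give 90% confluence for CAMTA1 as well, so the growth state of those cells is not settled by the sources, and a difference in growth could not be told apart from the construct. The study's methods call the replicates biological duplicates and describe its sequencing replicates, as triplicates, as separately transduced and selected cells.

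Features of these lists bear on every result below. In 14 of 14 lists the names of the peaks carry another construct than the label, and the 2 lists of a label share that construct in 7 of 7 labels. The lists labelled empty vector carry CAMTA1, those labelled TAZ4SA carry EV, and those labelled TAZ-CAMTA1 carry TAZ4SA. Under the label CAMTA1 the names read TC, under YAP5SA they read TFE3, under YAP-TFE3 they read YAP5SA, and under TFE3 they read YT. Each library is given under its label, and the counts of members called against the empty vector are also given under the names in the peaks. Differences at named members were fitted under the labels. The lists held 21748 to 102009 peaks except that of TFE3 replicate 1, which held 5721. Read totals were not used here. The lists use GRCh37, and no genome or annotation of that build was used, so members are given by position on GRCh37, without genes, and the liposarcoma identity of the cells was not checked against marker genes.

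Membership was set mainly by the shortest list. Of the 6585 regions with a peak in 13 lists, 6386 (97.0%) lacked a peak in TFE3 replicate 1 only, and 168 (2.55%) lacked one in TAZ-CAMTA1 replicate 1 only. Without TFE3 replicate 1, the rule gave 9949 members among 10447 regions present in all of the other lists. Leaving out any other library gave 3666 to 3803 members. With every list cut to its 5721 strongest peaks by p-value, 1368 regions met the rule.

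The number of lists that held a region formed a bowl. A total of 76892 regions (55.4%) were found in 1 list, the count fell to 1716 regions in 9 lists, and it rose again to 6585 in 13 and 4061 in 14. Among the members, 1566 (43.3%) had no peak of at least 5 kb in any list, 534 had such a peak in 1 list and 603 in 2. At the edge of the rule, 86 members had a broad peak in 9 lists, and 113 regions with a broad peak in 10 lists were left out.

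**Figure D1:**
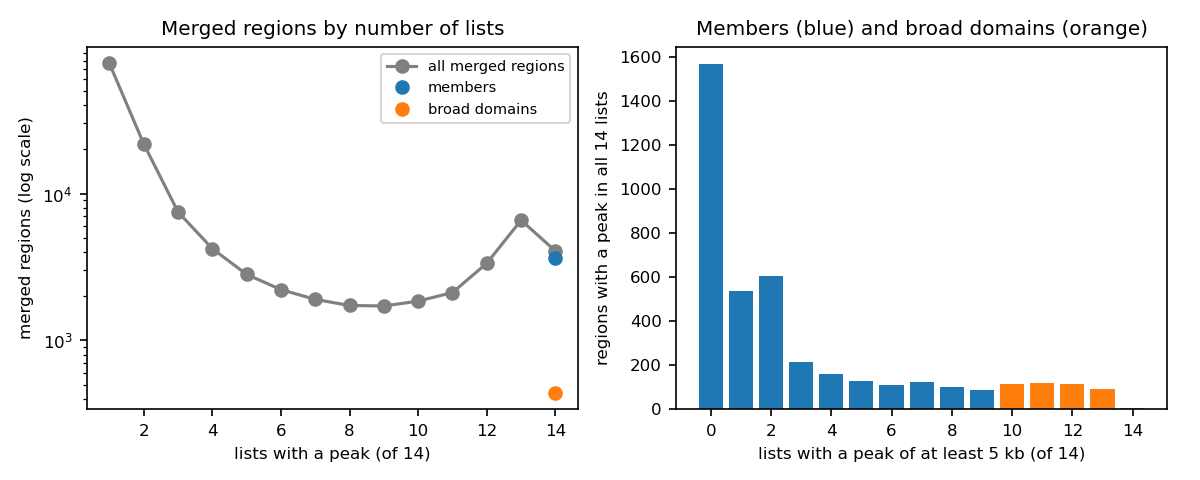
The left plot gives the number of merged regions (log scale) by the number of lists with a peak, with the 3620 members in blue and the 441 broad domains in orange at 14 lists. The right plot gives the regions with a peak in all 14 lists by the number of lists in which they had a peak of at least 5 kb, and the tallest bar is the 1566 members with none.

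Levels of the regions next to the limits of the rule overlapped. The level of a region in a library was the highest fold enrichment among its peaks there, a ratio over the local background as the peak caller gives it. At chr11:827748-849423, a member with a broad peak in 9 lists, fold enrichment ran from 13.4 in TFE3 replicate 1 to 75.5 in TAZ4SA replicate 1. At chr19:16173756-16194487, left out with a broad peak in 10 lists, it ran from 13.7 to 49.7 in the same libraries. At chr8:33368625-33371435, left out for want of a peak in TFE3 replicate 1 alone, it lay between 14.8 and 40.8 in the other lists. The member chr1:17229563-17235004 had levels from 16.3 to 53.6 in 14 lists. These were among the strongest regions next to each limit.

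Members were compact. Their merged width had a median of 6104 bp, from 905 to 66100 bp, against 20996 bp for the broad domains and 390 bp for regions found in 1 list. The merged width adds up the reach of 14 lists, and the median over lists of a member's widest peak had a median of 2442 bp over the members. Acetylated length within 1 library was shorter still in the shortest list, where peaks covered a median of 536 bp of a member, and 1496 to 5487 bp in the other 13. Between 14.8% and 53.1% of the members were split into at least 2 peaks in a list.

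The narrowest member, chr7:120590695-120591599, was 905 bp wide and strongly enriched. Fold enrichment there was 25.4 and 27.1 in the empty vector libraries, 53.1 and 34.2 in TAZ4SA, 9.81 and 22.9 in TAZ-CAMTA1, 26.2 and 14.9 in CAMTA1, 22.9 and 17.6 in YAP5SA, 23.9 and 17.2 in YAP-TFE3, and 7.48 and 28.4 in TFE3. The next narrowest were chr19:57019039-57019991 with 953 bp and chrX:47880458-47881511 with 1054 bp. At the other extreme, chrX:13067886-13133985 spanned 66100 bp, chr2:235857005-235918307 spanned 61303 bp and chr9:37913953-37971609 spanned 57657 bp. Lists differed widely in how much of them was covered. Covered length at chrX:13067886-13133985 ran from 622 bp to 65608 bp over the 14 lists.

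Members were among the stronger peaks of each list, which the rule favours because a weak region is easily missed in 1 of 14 lists. The median member stood at percentile 92.3 of the fold enrichment of all peaks of its list (median over 14 lists). In TFE3 replicate 1 it stood at percentile 57.2, and in the other 13 lists at 82.1 to 96.9. Median fold enrichment of the members was 12.3 and 13.6 in the empty vector libraries, 28.0 and 23.3 in TAZ4SA, 7.05 and 14.2 in TAZ-CAMTA1, 12.0 and 9.68 in CAMTA1, 11.5 and 9.82 in YAP5SA, 12.9 and 10.5 in YAP-TFE3, and 4.85 and 13.1 in TFE3. As label means these were 12.9 ± 0.919 for the empty vector, 25.6 ± 3.32 for TAZ4SA and 8.97 ± 5.83 for TFE3 (SD, n = 2 each). Both TAZ4SA libraries lay above the other 12, and the pairs of TAZ-CAMTA1 and TFE3 were the most uneven.

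The members held 5.21% to 24.8% of the peaks of a list, and 74.1% of those of TFE3 replicate 1. The lowest share belonged to TAZ4SA replicate 1, which also had the most peaks and in which 52.4% of the members carried a peak of at least 5 kb. In TFE3 replicate 1 no member did. How much of the level of a library follows its depth was not tested.

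**Figure D2:**
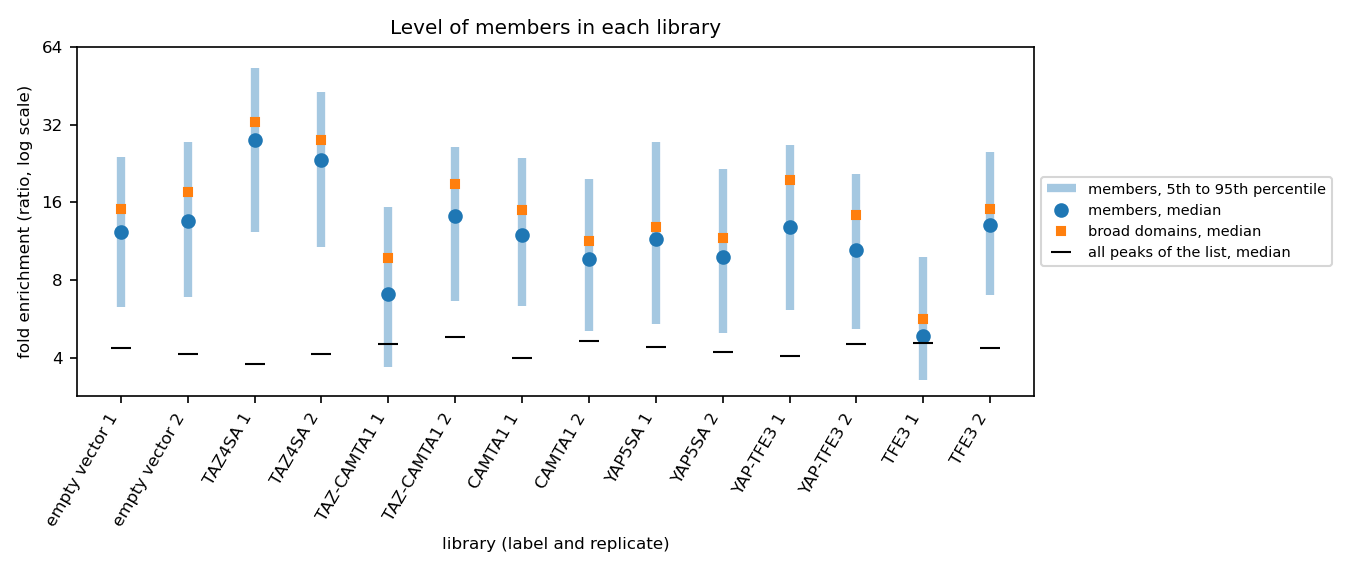
Fold enrichment (ratio, log scale) is shown for each library, with blue points for the median of the 3620 members, bars from their 5th to 95th percentile, orange squares for the median of the 441 broad domains, and black dashes for the median of all peaks of the list. Member medians run from 4.85 in TFE3 replicate 1 to 28.0 in TAZ4SA replicate 1, while the median over all peaks stays between 3.78 and 4.80.

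A small core was strong everywhere. In all 14 lists, 302 members (8.34%) were in the top 10% of peaks and 1838 (50.8%) in the upper 50%. Without TFE3 replicate 1 these counts were 545 (15.1%) and 2917 (80.6%). By contrast, 63 members were in the top 10% of none of the lists, and 299 fell below the 10th percentile in at least 1. The poorest rank of a member was in TFE3 replicate 1 for 2387 members and in TAZ-CAMTA1 replicate 1 for 600.

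The most evenly strong member was chr19:1648619-1656303, which never ranked below percentile 99.6. Its fold enrichment was 31.0 and 45.1 in the empty vector libraries, 66.7 and 50.6 in TAZ4SA, 26.0 and 42.2 in TAZ-CAMTA1, 41.4 and 27.4 in CAMTA1, 47.0 and 41.1 in YAP5SA, 42.8 and 24.6 in YAP-TFE3, and 17.3 and 26.3 in TFE3. Its strongest summits in the 14 lists lay within 64 bp of each other. The other 5 members with the best poorest rank were chr5:133509506-133514891, chr5:137907146-137914230, chr7:2391185-2399269, chr18:12701331-12704256 and chr16:31462116-31476181, each at percentile 99.4 or higher in every list. Summits lay within 72 bp in all of these except chr7:2391185-2399269, where they lay within 221 bp.

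The members with the poorest rank in any single list passed by a thin margin there, and their median level over the 14 lists was also low, 5.66- to 6.97-fold. At chr14:73391681-73397289 fold enrichment was 2.09 in YAP5SA replicate 2, at percentile 0.091 of that list, and 3.49 to 14.8 in the other 13. At chr15:75493462-75497241 it was 2.36 in TAZ-CAMTA1 replicate 1 and reached 34.0 in TAZ4SA replicate 1. The next 4, GL000195.1:72624-78886, chr7:41225314-41231649, chr2:9225175-9229381 and chr11:64048993-64057013, had their poorest percentile between 0.193 and 0.395. In 4 of these 6 members the poorest list was TAZ-CAMTA1 replicate 1, and in the other 2 it was a YAP5SA library.

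Levels were similar whether a member was broad in few or in several lists, while covered length rose, which the grouping by broad peaks itself sets. The 1566 members with no broad peak had a median covered length of 1937 bp and a median level of 11.7-fold. For the 1137 with a broad peak in 1 or 2 lists the values were 3250 bp and 11.8-fold, for the 499 with 3 to 5 lists 5024 bp and 11.6-fold, and for the 418 with 6 to 9 lists 7388 bp and 12.1-fold. Beyond the limit, the broad domains had 12582 bp and 14.7-fold. Across the 3620 members, Spearman's rho was 0.061 between level and covered length and -0.0975 between level and the number of peaks per list, which is a description over regions that share their libraries.

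Members were unevenly placed along the genome. Per Mb between the first and last peak of a chromosome, they were densest on chromosomes 19 (3.03), 17 (2.65), 20 (2.22) and 22 (2.03), the small chromosomes known for many genes, and sparsest on X (0.535), 10 (0.585) and 4 (0.603). Part of this held for all peaks: as a share of the merged regions of a chromosome, members ran only from 1.57% on chromosome 10 and 1.74% on 18 to 3.17% on 7 and 3.26% on 19. Chromosome 22 was dense in members but low in this share (1.99%). On unplaced contigs lay 3 members, and there were none on Y. Median level per chromosome ranged from 10.7-fold on 8 to 13.2-fold on 21.

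**Figure D3:**
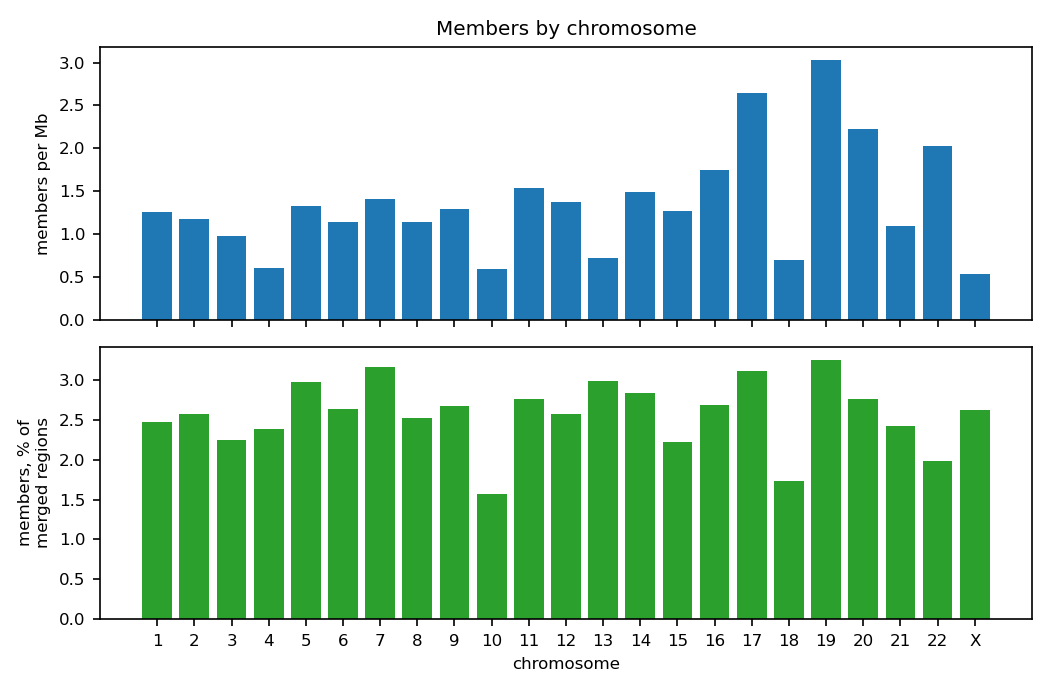
The upper bars give members per Mb for chromosomes 1 to 22 and X, and the lower bars give members as a percentage of the merged regions of the same chromosome. Chromosome 19 is highest in both (3.03 per Mb and 3.26%), and chromosome 10 has the lowest share (1.57%).

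The median distance from a member to the next was 103059 bp, and 331 members (9.15%) had another within 10 kb. Regions found in 13 lists, which are more numerous, lay closer together, with a median of 61342 bp. The densest 1 Mb held 19 members, between chr16:29812488-30801608, with levels from 7.96 to 27.2 and no broad domain among them. The next was chr17:7143260-8131203 with 14 members, followed by 4 windows of 12 members each, 2 of them on chromosome 6 at chr6:26051956-26540956 and chr6:31365795-32148074. The longest stretch without a member was 26.8 Mb on X, from 73835854 to 100660623. The next longest, 25.7 Mb on chromosome 1 and 25.1 Mb on chromosome 9, span centromeres.

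The strongest acetylation lay at much the same position in all lists for many members. The range of a member's strongest summit over 14 lists had a median of 584 bp, and it was at most 500 bp in 1679 members (46.4%). Between the replicates of a label, the median distance of summits was 55 bp for the empty vector, 48 bp for TAZ4SA, 86 bp for TAZ-CAMTA1, 70 bp for CAMTA1, 54 bp for YAP5SA, 64 bp for YAP-TFE3 and 95 bp for TFE3. The mean was 67.5 ± 17.5 bp within labels (SD, 7 pairs) and 72.9 ± 12.6 bp between labels (SD, 84 pairs). The difference of 5.35 bp exceeded that of nearly every other division of the 14 libraries into 7 pairs (exact one-sided permutation test, p = 0.00558, 754 of 135135 divisions). This measure was added after the data were seen.

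To ask whether libraries of a label were alike in their members, levels were taken on the log2 scale and quantile-normalized over the 4061 regions with a peak in all 14 lists. Over the 3620 members, the mean absolute difference was 0.387 ± 0.0496 between replicates (SD, 7 pairs) and 0.439 ± 0.0358 between libraries of different labels (SD, 84 pairs). The gap of 0.0522 was reached by 3 of 135135 divisions into pairs, the labelled division included (exact one-sided permutation test, p = 2.22e-05). Without TFE3 replicate 1 it was 0.0577 (exact p = 6.66e-05). This test is the same under the labels and under the names in the peaks. Over members, Pearson's r between normalized levels was 0.529 to 0.764 within labels and 0.376 to 0.675 between them (medians 0.693 and 0.594).

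The nearest library was the replicate partner for 10 of 14 libraries. TAZ4SA had the closest pair (0.318), followed by YAP5SA (0.360), YAP-TFE3 (0.369), the empty vector (0.373) and CAMTA1 (0.380). The pairs of TAZ-CAMTA1 (0.446) and TFE3 (0.460) were farther apart than the mean of libraries of different labels. TAZ-CAMTA1 replicate 1 was nearest to YAP-TFE3 replicate 1, and TAZ-CAMTA1 replicate 2 to TAZ4SA replicate 2. TFE3 replicate 1 was nearest to YAP5SA replicate 1, and TFE3 replicate 2 to CAMTA1 replicate 2. With levels as deposited and no scaling, the gap between and within labels was 0.168 and did not pass (exact p = 0.0732).

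**Figure D4:**
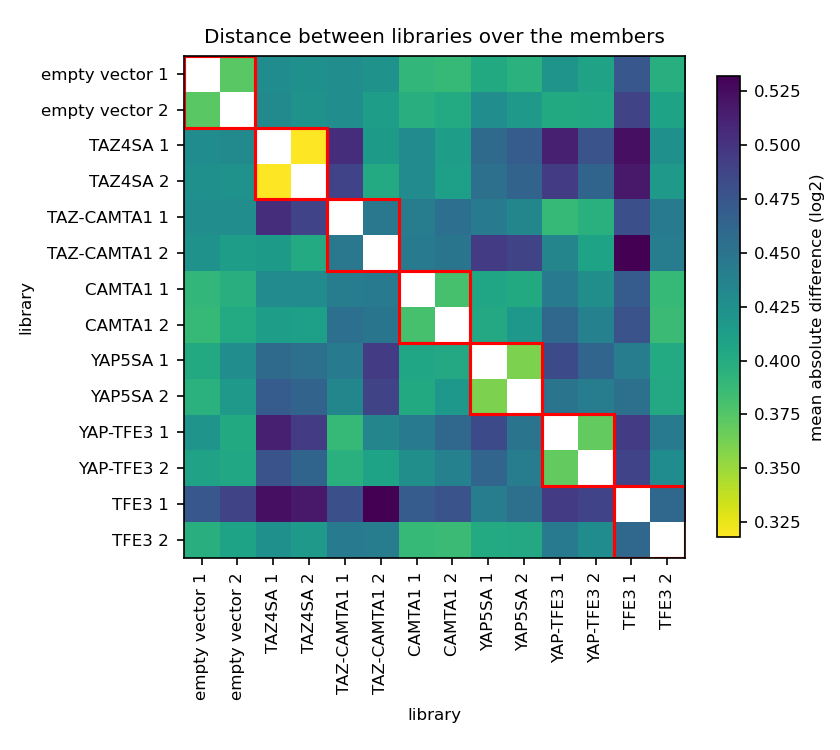
The colour gives the mean absolute difference in normalized level (log2) over the 3620 members for each pair of the 14 libraries, with the 7 replicate pairs framed in red. Lighter colours mean closer libraries: the TAZ4SA pair is closest at 0.318, and TFE3 replicate 1 is far from every library, its nearest being 0.442 away.

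Differences among libraries were modest for most members. The range of normalized level over 14 libraries had a median of 1.29 on the log2 scale, from 0.48 to 2.85, and the SD within a label had a median of 0.327. The steadiest member was chr13:114822309-114834947 with a range of 0.48. Before normalization its fold enrichment was 11.3 and 12.3 in the empty vector libraries, 29.3 and 19.3 in TAZ4SA, 8.25 and 15.5 in TAZ-CAMTA1, 12.6 and 10.9 in CAMTA1, 12.7 and 10.3 in YAP5SA, 10.7 and 10.3 in YAP-TFE3, and 4.85 and 13.8 in TFE3. These differences followed the medians of the libraries. The other 5 of the steadiest 6 were chr3:197022499-197039721, chr10:88513843-88519815, chrX:40032059-40037391, chr6:166753710-166756952 and chrX:13707038-13713527, with ranges up to 0.544.

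The 6 most variable members had ranges of 2.49 to 2.85. At chr11:128074626-128084830 (range 2.85), fold enrichment was 30.2 and 11.7 in YAP-TFE3 and 7.13 and 3.03 in YAP5SA. At chr20:35916648-35926982 (2.70) a single library set the range, with 2.78 in TFE3 replicate 1 against 13.9 in replicate 2. At chr12:7583058-7587389 (2.69) the lowest value, 2.75, was in CAMTA1 replicate 2 against 8.31 in replicate 1. Large ranges thus came both from differences that replicates shared and from single libraries. The remaining 3 were chr3:159642738-159649903, chr3:149368358-149379042 and chr12:52672005-52681264. A region that lost its peak in 1 list could not be a member, so larger falls are not in these ranges.

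Among the 7 labels, 108 members (2.98%) differed at an adjusted p below 0.05 (limma moderated F test on normalized log2 levels, Benjamini-Hochberg adjusted over 4061 regions). The background share was 3.45%, which is 140 of all 4061 regions tested, and the share of members was slightly below it. Of the broad domains, 32 of 441 (7.26%) passed. The difference between these shares was not tested. At an unadjusted p below 0.05 there were 701 members (19.4%), and 813 of the 4061 regions tested. With 1 library left out, the count of 108 ranged from 20 without YAP-TFE3 replicate 1 (background 0.665%) to 226 without TFE3 replicate 2 (background 6.7%), and it was 136 without TFE3 replicate 1 (background 4.16%). It also moved with the scaling, the measure and the filter. It was 603 with no scaling (background 17.0%) and 386 by p-value (11.3%), both above that range. Within the range were 196 with equal library medians (5.66%) and 37 at −log10 q of at least 5 (2.24%).

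Among these 108 members the label YAP-TFE3 was most often the highest, and TAZ4SA was most often the lowest after normalization but not with levels as deposited. The mean level was highest under the label YAP-TFE3 in 43, TAZ-CAMTA1 in 23, TAZ4SA in 15, YAP5SA in 14, the empty vector in 6, TFE3 in 4 and CAMTA1 in 3. It was lowest under TAZ4SA in 39, YAP5SA in 23 and CAMTA1 in 19. Neither split was counted over all regions tested, so it is not known whether it is particular to members. Both YAP-TFE3 libraries lay above the other 12 in 22 members, and both TAZ4SA libraries lay below the other 12 in 22. With library medians set equal, YAP-TFE3 was highest in 43 and TAZ4SA lowest in 54. With no scaling, YAP-TFE3 was highest in 48 and TAZ4SA in 41, while TAZ4SA was lowest in 1 and TFE3 in 35. Of the 108, 38 were among the members called with no scaling. After normalization the commonest combination was highest in YAP-TFE3 and lowest in TAZ4SA, in 23 members. The names in the peaks of those lists read YAP5SA and EV. Label means of the 108 spanned 1.17 to 2.14 on the log2 scale.

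The members that differed were longer than the rest, with a median covered length of 4018 bp against 2821 bp for the other 3512 members, and they were slightly weaker, with a median level of 10.4-fold against 11.8-fold. Of the 108, 26.9% had no broad peak in any list, against 43.8% of the others. They were spread over 22 chromosomes and 1 contig, with 14 of 224 members on chromosome 7, 13 of 285 on chromosome 2 and 1 of 139 on chromosome 20.

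The member with the smallest p was chr12:47336645-47361950, where the normalized level was highest under YAP-TFE3 and lowest under TAZ4SA. Fold enrichment was 16.7 and 16.7 in the empty vector libraries, 11.4 and 9.49 in TAZ4SA, 7.53 and 21.4 in TAZ-CAMTA1, 12.5 and 9.37 in CAMTA1, 8.88 and 6.71 in YAP5SA, 28.5 and 19.7 in YAP-TFE3, and 4.40 and 7.75 in TFE3. After normalization both YAP-TFE3 libraries were above and both TAZ4SA libraries below all others, with label means of 4.57 and 2.49 (log2; limma F = 9.54, adjusted p = 0.00189). Its strongest summits were 14930 bp apart over the 14 lists, so different peaks of this 25306 bp region carried the maximum.

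At chr7:105465864-105475861 the YAP-TFE3 libraries were again the highest, and here the summits lay within 98 bp. Fold enrichment was 10.2 and 11.7 in the empty vector libraries, 10.9 and 15.0 in TAZ4SA, 14.4 and 21.1 in TAZ-CAMTA1, 12.7 and 6.34 in CAMTA1, 8.39 and 12.2 in YAP5SA, 33.6 and 24.3 in YAP-TFE3, and 5.80 and 17.0 in TFE3. Normalized means were 4.87 for YAP-TFE3, 4.33 for TAZ-CAMTA1 and 2.72 for TAZ4SA (log2; limma F = 9.45, adjusted p = 0.00189).

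After normalization the member chr11:27952819-27959295 also had YAP-TFE3 highest and TAZ4SA lowest. Its fold enrichment was 16 and 22.2 in the empty vector libraries, 16.6 and 17.5 in TAZ4SA, 14.5 and 24.5 in TAZ-CAMTA1, 13.4 and 11.6 in CAMTA1, 9.24 and 11 in YAP5SA, 38.7 and 27.2 in YAP-TFE3, and 3.99 and 16.8 in TFE3. Normalized means were 5.05 for YAP-TFE3 and 4.47 for TAZ-CAMTA1, the next highest, against 3.07 for TAZ4SA (log2; limma F = 8.42, adjusted p = 0.00363). Without any scaling, this member and the preceding pair no longer passed.

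The other 3 of the 6 smallest p-values belonged to members in which YAP5SA, the fusions or CAMTA1 were low. At chr6:149350762-149359161 fold enrichment was 4.14 and 5.01 in YAP5SA against 12.3 and 14.6 in the empty vector libraries and 45.9 and 42.5 in TAZ4SA. Normalized levels of both YAP5SA libraries (2.24 and 2.62) were below those of the other 12, and both TAZ4SA libraries (4.35 and 4.55) were above them (log2; limma F = 9.14, adjusted p = 0.00212). At chr12:12655802-12661661 fold enrichment was 2.52 and 2.84 in TAZ-CAMTA1 and 5.33 and 5.03 in YAP-TFE3, against 11.5 and 9.76 in the empty vector libraries. After normalization both fusion labels were below every other library, with means of 1.71 and 2.48 against 2.95 to 3.59 (log2; limma F = 8.60, adjusted p = 0.00319). At chr7:32622367-32632462 it was 4.19 and 2.97 in CAMTA1, and the normalized mean there was 1.91 against 2.92 to 3.97 for the other labels (log2; limma F = 8.79, adjusted p = 0.00283).

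**Figure D5:**
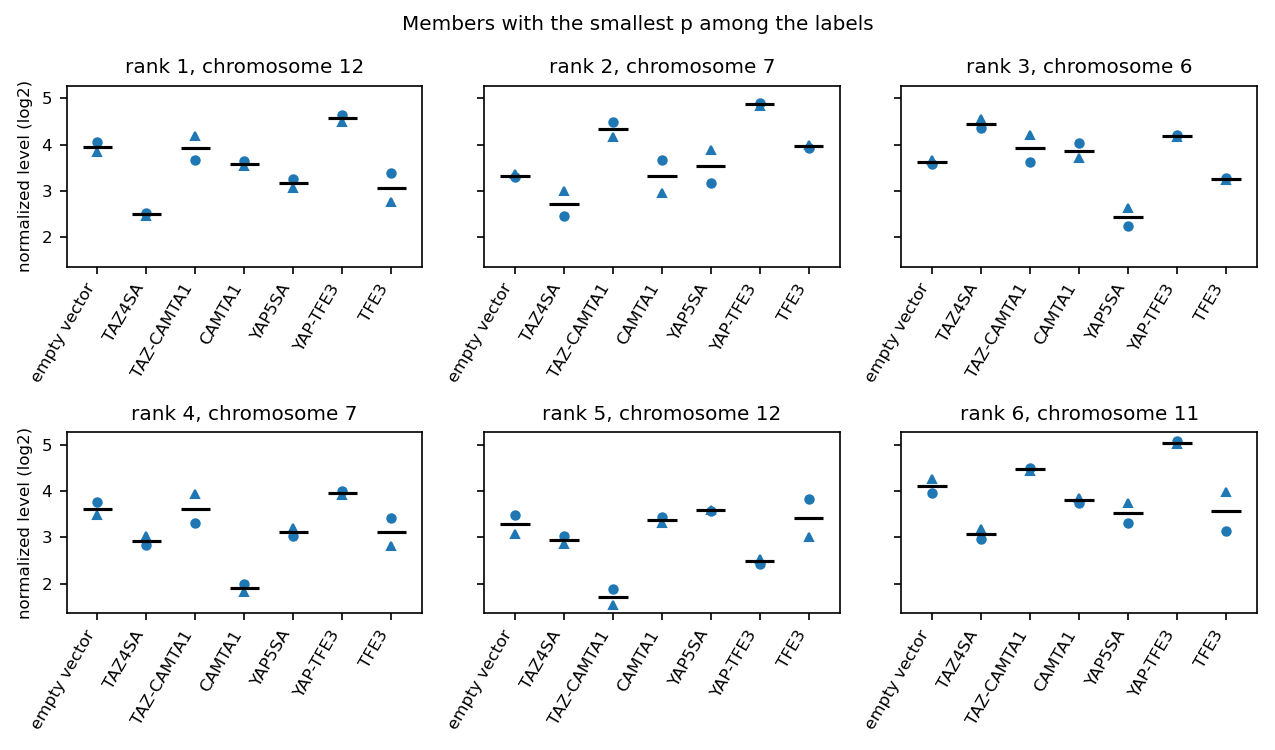
Normalized level (log2) is plotted for the 6 members with the smallest limma F p-value, with circles for replicate 1, triangles for replicate 2 and a black line for the label mean. YAP-TFE3 is highest in the members of rank 1, 2, 4 and 6 by mean, YAP5SA is lowest at rank 3, CAMTA1 at rank 4 and TAZ-CAMTA1 at rank 5.

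Against the empty vector label, few members passed in any of the 6 contrasts, which share the 2 empty vector libraries. Normalization removed a shift between libraries: without it, the median log2 level of the members was 0.935 higher than in the empty vector label for TAZ4SA, and the median difference was -0.375 for TAZ-CAMTA1, -0.257 for CAMTA1, -0.264 for YAP5SA, -0.168 for YAP-TFE3 and -0.67 for TFE3. All differences below are relative to that shift, on the normalized log2 scale, with adjusted p-values from limma. The median SE of a difference was 0.333.

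Under the label TAZ4SA, 3 members fell, in a background of 0.0739% of all regions tested, and 426 (11.8%) had an unadjusted p below 0.05, against 12.4% of all regions. At chr18:9638953-9650532 fold enrichment was 19.7 and 26.0 in the empty vector libraries and 10.8 and 10.7 in TAZ4SA, and the remaining libraries lay between 5.16 and 18.8. The normalized difference was -1.87 ± 0.342 (SE, limma adjusted p = 0.0124). At chr3:14179579-14192038 it was 21.8 and 27.5 against 16.1 and 10.8, a difference of -1.74 ± 0.327 (SE, limma adjusted p = 0.0124). The third, chr22:19861032-19885228, named after its values were seen, had 21.1 and 27.7 against 14.5 and 14.5, a difference of -1.62 ± 0.328 (SE, limma adjusted p = 0.0276). In all 3 members the normalized levels of both TAZ4SA libraries were the lowest of the 14. Each call was lost when either library of either label was left out, and with no scaling, where the differences were -1.07, -0.89 and -0.74 (limma adjusted p = 0.177, 0.237 and 0.307). The count was 30 with equal library medians (background 0.886%) and 42 with the p-value as the measure (background 1.26%).

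Under the label CAMTA1, 2 members fell (background 0.0492%), and 6.13% of members had an unadjusted p below 0.05, against 6.18% of all regions. The first was chr7:32622367-32632462, described above, with 13.9 and 12.8 in the empty vector libraries. Its normalized difference was -1.71 ± 0.320 (SE, limma adjusted p = 0.0232). The call was lost when any library of either label was left out, at differences of -1.58 to -1.85, and with no scaling, at -1.91. The second was chr8:13122977-13135321, which was also the only member that fell under the label TFE3 (background 0.0246%), where 9.53% of members had an unadjusted p below 0.05, against 9.58% of all regions. Without TFE3 replicate 2 more members passed under that label, which then rested on TFE3 replicate 1 alone, with the spread taken from the other labels. Fold enrichment at chr8:13122977-13135321 was 19.5 and 19.8 in the empty vector libraries, 29.9 and 21.3 in TAZ4SA, 8.21 and 16.2 in TAZ-CAMTA1, 8.06 and 4.25 in CAMTA1, 11.5 and 9.45 in YAP5SA, 15.4 and 9.09 in YAP-TFE3, and 2.93 and 6.75 in TFE3. After normalization the empty vector libraries were the highest of the 14, and the CAMTA1 and TFE3 libraries, which overlapped each other, were the lowest. The difference was -1.55 ± 0.316 for CAMTA1 (SE, limma adjusted p = 0.0443) and -1.78 ± 0.316 for TFE3 (SE, limma adjusted p = 0.0106). The call for CAMTA1 was lost in 10 of 14 fits that left out 1 library. That for TFE3 was lost without empty vector replicate 1 (-1.69), empty vector replicate 2 (-1.86) or TFE3 replicate 1 (-1.67). Both calls at this member were lost with equal medians, with no scaling and by p-value. With equal medians and with no scaling the differences were -1.47 and -1.75 for CAMTA1, and -1.42 and -2.15 for TFE3.

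Under the label YAP5SA, 1 member rose (background 0.0246%), and 8.56% of members had an unadjusted p below 0.05, against 8.52% of all regions. At chr4:170579726-170582845 fold enrichment was 14.7 and 14.1 in YAP5SA against 6.51 and 3.66 in the empty vector libraries and 3.74 to 12.4 in the other 10. The normalized difference was 1.86 ± 0.354 (SE, limma adjusted p = 0.0303), and both YAP5SA libraries were the highest of the 14. It was 1.35 without empty vector replicate 2 (limma adjusted p = 0.676) and 2.39 without replicate 1 (limma adjusted p = 0.0113). The call was also lost, at differences of 1.76 to 1.93, without either library of YAP5SA or YAP-TFE3, and with no scaling (1.56) and by p-value (2.48). For the fusion labels, limma called 0 members under TAZ-CAMTA1 and 0 under YAP-TFE3 (background 0.0% each), with 269 (7.43%) and 304 (8.40%) members at an unadjusted p below 0.05, against 7.51% and 8.57% of all regions. By p-value the counts were 7 (background 0.172%) and 6 (background 0.148%), and 2 members were called under TAZ-CAMTA1 without either TFE3 library (background 0.0492%). With 2 libraries per label, these counts do not show that members were alike under the fusions and the empty vector.

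The naming of the libraries changed these counts. With the construct in the peak names, the reference becomes the pair labelled TAZ4SA. Then 46 members differed for TAZ4SA (36 higher and 10 lower, background 1.6%), which are the libraries labelled TAZ-CAMTA1. For YAP5SA 185 differed (116 higher and 69 lower, background 5.54%), which are the libraries labelled YAP-TFE3, and for TFE3 23 differed (13 higher and 10 lower, background 0.64%). For TAZ-CAMTA1 2 members were lower (background 0.0739%), for CAMTA1 3 were higher (background 0.0739%) and for YAP-TFE3 1 was lower (background 0.0492%). All of these counts are for quantile-normalized levels, and neither another scaling nor leaving out a library was tried under these names. In each contrast with more than 3 calls, the share of members called (1.27%, 5.11% and 0.635%) was close to and below that of all regions tested. Members made up 89.1% of those regions, and the difference in share was not tested.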

How the data were processed

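H3K27ac ChIP-seq libraries of SW872 cells were analysed from 14 peak lists. Per the study's methods, the authors aligned reads to GRCh37 with BWA, dropped greylist regions and reads that map to several places, and ran MACS2 for narrow peaks (versions not given in the sources used here). The deposited values of a peak are its fold enrichment (a ratio over local background), −log10 p-value and −log10 q-value, and a score that restates the −log10 q-value. The methods state pooled replicates and a looser q-value limit, whereas the lists are separate per library and their lowest −log10 q was 1.30 to 1.33. The labels' extraction text names a Flag antibody, and the antibody label is H3K27ac. The 14 input libraries were not analysed here.

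Intervals that overlapped or touched were merged. The level of a region was the highest fold enrichment of its peaks in a list, log2-transformed with no pseudocount and quantile-normalized over 4061 regions. Labels were compared with limma 3.58.1 (R 4.3.3) in 1 fit of 14 libraries, with Benjamini-Hochberg adjustment over the 4061 regions at 0.05, and replicates by an exact permutation test over 135135 divisions into pairs (Python 3.11.15, numpy 2.4.6). The deposited fold enrichment gives no read counts, so no counting interval was given, and 2 libraries per label limit the precision.

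The members, lists and tests were chosen with earlier results of these data known. Regions named were those with the best and poorest rank, the smallest and largest range, the smallest p and the largest differences past the threshold, the narrowest and widest, and those next to each limit of the rule. Alternatives were filters on q-value, list length, merging distance, width and number of broad peaks, scaling, measure, a replicate block, a variance trend, the construct in the peak names, and leaving out each library. Genes, start sites and motifs need a GRCh37 reference and were not analysed here.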

Additional observations from a re-analysis of the deposited data

How the results depend on the processing

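The number of members moved from 3620 to 2052 with peaks of −log10 q of at least 5, to 1368 with lists of equal length and to 1566 with no broad peak allowed. Leaving out 1 library gave 3666 to 9949, the highest without TFE3 replicate 1. The median percentile was 92.7 by p-value. The likeness of replicates was 0.0376 to 0.0688 with 1 library left out, passed in all 14 of these, and failed only with no scaling (0.168, exact p = 0.0732) among 7 other alternatives.

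Percentages from here on give the share of all regions tested that passed in the same fit. Members that differed among the 7 labels (108) became 196 with library medians set equal (5.66%), 603 with no scaling (17.0%), 386 with the p-value as the measure (11.3%) and 37 with −log10 q of at least 5 (2.24%). Of the 108, 105 were also called with equal medians, 107 by p-value and 38 with no scaling. Leaving out 1 library gave 20 to 226: 35 without TAZ4SA replicate 1 or 2 (1.11% and 1.16%), 20 and 42 without those of YAP-TFE3 (0.665% and 1.48%), 56 and 58 without those of YAP5SA (1.82% and 1.95%), 70 without empty vector replicate 2 (2.29%), and 226 without TFE3 replicate 2 (6.7%).

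Against the empty vector label, the counts were 3 for TAZ4SA (0.0739%), 0 for TAZ-CAMTA1, 2 for CAMTA1 (0.0492%), 1 for YAP5SA (0.0246%), 0 for YAP-TFE3 and 1 for TFE3 (0.0246%). In the same order they became 30 (0.886%), 0, 1 (0.0246%), 1 (0.0246%), 0 and 0 with equal medians, and 0 in each with no scaling. By p-value they were 42 (1.26%), 7 (0.172%), 2 (0.0492%), 0, 6 (0.148%) and 3 (0.0739%). With −log10 q of at least 5 they were 3 (0.125%) for TAZ4SA and 0 for the others. Under the names in the peaks they were 46 (1.6%), 2 (0.0739%), 3 (0.0739%), 185 (5.54%), 1 (0.0492%) and 23 (0.64%). Where no member was called, the share of all regions tested was 0.0%. With 1 library left out they were 0 to 18 for TAZ4SA (0 without a library of either label compared, 18 without TAZ-CAMTA1 replicate 1, 0.492%, and 9 without either TFE3 library, 0.271%), 0 to 2 for TAZ-CAMTA1 (1 without its replicate 2, 2 without either TFE3 library) and 0 to 2 for CAMTA1 (0 without a library of either label compared, 1 without any of TAZ4SA, YAP5SA or YAP-TFE3). They were 0 to 1 for YAP5SA (0 without empty vector replicate 2 or any of YAP5SA or YAP-TFE3), 0 for YAP-TFE3 and 0 to 32 for TFE3 (0 without either empty vector library or TFE3 replicate 1, 32 without TFE3 replicate 2, 0.911%). The cause of these changes was not tested. No named difference changed sign in the alternatives run on it, which left out the names in the peaks. Under those names the falls for TAZ4SA reversed. The normalized means of TAZ4SA and EV were then 4.23 and 2.52 on chromosome 18, 3.84 and 2.77 on 3, and 4.52 and 2.87 on 22. Those for CAMTA1 also reversed, at 3.62 and 2.92 on chromosome 7 and 4.19 and 3.57 on 8. TFE3 and EV were both 3.57 on 8, and YAP5SA had 2.73 against 2.66 on 4.

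Replicate numbers did not pair the libraries: correlations of same-numbered deviations over 21 pairs of labels were -0.0455 to 0.133, and 1 exceeded 0.1. With the replicate block, 118 members differed among labels (3.69%), 107 of them shared with the 108, the likeness gap was 0.0673, and the count for TAZ4SA was 5 (0.123%). The block left the other 5 counts as they were. Alternatives for start sites and motifs were not run, since no reference of the build was used.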
